A study of Mus musculus with 6 samples.

Results

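The 10 genes described here encode the proteins that trap glucose in the cell, turn pyruvate into lactate and carry glucose and lactate across the membrane. They were chosen by name as the hexokinases Hk1, Hk2, Hk3 and Hkdc1, the lactate dehydrogenase subunits Ldha and Ldhb, the glycolytic regulator Pfkfb3, the glucose transporter Slc2a1 and the monocarboxylate transporters Slc16a1 and Slc16a3, and they were 10 of 23420 genes in the count table. Poly-A RNA of whole mouse retina was sequenced in 3 groups of 2 libraries. The labels give CD1 mice for all groups, whereas the methods of the study name adult BALB/cJ mice of both sexes, a stronger light and more frequent first doses of minocycline from the day before the light, so strain, light and dosing are given here only as labelled. Control mice had no treatment. Mice of the light group were exposed to white light of 10000 lux for 1 h and analysed after 4 days. Mice of the light plus minocycline group had the same exposure and received 45 mg/kg of minocycline, a tetracycline antibiotic that dampens microglia, intraperitoneally each day for 4 days. Whether the control and light groups received injections of solvent is not stated in the labels. The study describes the libraries of a group as biological duplicates. Both minocycline libraries carry the same name in the table, so they are called minocycline A and B and have no replicate number.

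Hexokinases phosphorylate glucose and so keep it in the cell. Hk1 is the isozyme of most neural tissue, Hk2 is the isozyme that photoreceptors are known for, Hk3 is found mainly in myeloid blood cells, and Hkdc1 is a later described relative. Photoreceptors convert much of their glucose to lactate even when oxygen is present, which is known as aerobic glycolysis. Lactate dehydrogenase is a tetramer of A and B subunits, of which the A subunit is associated with making lactate and the B subunit with using it. Slc2a1 (GLUT1) brings glucose into the retina, and Slc16a1 (MCT1) and Slc16a3 (MCT4) move lactate with a proton. Several of these genes are known targets of hypoxia-inducible factor, which recognises the core letters ACGTG.

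On GRCm38 (GENCODE M21) Hk1 lies on chr10:62268855-62379908 and Hkdc1 on chr10:62383137-62422491, both on the minus strand and 3228 bases apart. Hk2 lies on chr6:82725025-82774454, Hk3 on chr13:55005985-55021385, Ldhb on chr6:142490249-142507957 and Pfkfb3 on chr2:11471433-11554077, all on the minus strand. Ldha lies on chr7:46841475-46855627, Slc2a1 on chr4:119108711-119137983, Slc16a1 on chr3:104638668-104658462 and Slc16a3 on chr11:120948480-120960868, all on the plus strand. An antisense gene, Hk1os, overlaps Hk1 over 23112 bases, and Unc5a overlaps Hk3 by 34 bases on the opposite strand. The libraries were made with a kit that marks strand, but whether the counting used it is not given in the sources used here, so reads of such pairs may not be separated.

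The stretches before the start sites are shown for the 4 members with the lowest fold changes after light (Hk2, Slc16a3, Slc16a1 and Ldha) and for Hk3, the most changed member, to show where the letters ACGTG fall. Each is the 250 bases before a RefSeq start (build GRCm38.p6), printed 5′ to 3′ in the direction of the gene, and capitals mark ACGTG or its reverse complement CACGT. None of the bases shown lies in an exon of GENCODE M21 except 14 bases of the Slc16a3 stretch. RefSeq starts of Ldha and Slc16a3 lie inside the longer gene spans given above.
Hk2 (chr6:82774455-82774704, minus strand): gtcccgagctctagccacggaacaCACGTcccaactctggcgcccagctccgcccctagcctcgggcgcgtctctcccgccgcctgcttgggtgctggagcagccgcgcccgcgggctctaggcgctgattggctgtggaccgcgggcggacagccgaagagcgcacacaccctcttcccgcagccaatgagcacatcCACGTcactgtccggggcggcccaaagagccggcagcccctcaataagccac
Slc16a3 (chr11:120948817-120949066, plus strand): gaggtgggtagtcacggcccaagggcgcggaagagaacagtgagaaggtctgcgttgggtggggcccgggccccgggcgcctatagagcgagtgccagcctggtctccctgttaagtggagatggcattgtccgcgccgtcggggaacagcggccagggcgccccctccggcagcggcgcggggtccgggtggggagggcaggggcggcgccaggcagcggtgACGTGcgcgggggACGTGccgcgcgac
Slc16a1 (chr3:104638414-104638663, plus strand): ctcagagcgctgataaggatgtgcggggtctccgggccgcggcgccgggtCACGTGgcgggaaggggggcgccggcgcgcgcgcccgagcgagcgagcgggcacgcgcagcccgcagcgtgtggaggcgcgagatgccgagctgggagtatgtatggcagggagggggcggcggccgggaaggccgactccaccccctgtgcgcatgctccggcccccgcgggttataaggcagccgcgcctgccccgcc
Ldha (chr7:46845554-46845803, plus strand): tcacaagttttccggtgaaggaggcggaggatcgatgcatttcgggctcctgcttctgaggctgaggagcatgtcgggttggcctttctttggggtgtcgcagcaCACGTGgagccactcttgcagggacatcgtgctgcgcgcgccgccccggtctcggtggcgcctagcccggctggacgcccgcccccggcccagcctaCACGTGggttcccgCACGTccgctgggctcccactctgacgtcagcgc
Hk3 (chr13:55021386-55021635, minus strand): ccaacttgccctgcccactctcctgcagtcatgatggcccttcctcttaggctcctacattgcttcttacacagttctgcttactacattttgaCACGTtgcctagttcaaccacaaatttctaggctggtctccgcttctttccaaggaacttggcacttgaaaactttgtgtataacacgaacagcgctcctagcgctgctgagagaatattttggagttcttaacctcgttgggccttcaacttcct
All 10 members had a start in the RefSeq table, with 13 starts in total. The Hk2 and Slc16a3 stretches held the motif at 2 separate places each, the Ldha stretch at 3, and the Slc16a1 and Hk3 stretches at 1. In Ldha and Slc16a1 some of these places read CACGTG, which is the motif on both strands. Slc2a1 and Pfkfb3 also held it, so that 7 members had it before at least 1 start and Hk1, Hkdc1 and Ldhb had it before none. The other start of Ldha, not shown, held none. Counted by start, 8 of the 13 held it. Of all 32851 start sites, 16.6% held it in the same window, and among the 9178 with a GC content of at least 60% the share was 23.03%. The stretches shown for Hk2, Slc16a3, Slc16a1 and Ldha had a GC content of 69.6%, 73.6%, 76.4% and 67.2%, against a median of 52.4% over all starts. A match is a description of the letters and not evidence that a factor binds there.

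Library totals lay between 15205930 and 22856922 counts. Levels are given as CPM, the counts scaled to a common total, on a library size adjusted by the TMM method, and at this depth 3 counts correspond to between 0.131 and 0.213 CPM. Markers of retinal cells were present in every library, and the 10 rod markers, with Gnat1 and Pde6b among them, summed to 82866 and 105489 CPM in the controls. Light 2 stood further from the controls than light 1 on the first principal component, which held 53.2% of the variance (60.4 against 27.1, with controls at -31.5 and -30.6). The myeloid marker sum was 253 CPM in light 1 and 803 CPM in light 2. Control 1 had 77778 Xist counts and 11 counts over 4 Y-linked genes, whereas the other libraries had 25 to 188 Xist counts and 6532 to 12858 Y-linked counts. Markers of corneal epithelium summed to 210 and 303 CPM in the minocycline libraries and to at most 17.1 CPM in the others, and markers of smooth muscle and stroma reached 84.4 and 423 CPM in them against at most 23.6 CPM elsewhere. Of the red blood cell markers, Hba-a1 and Hba-a2 were listed at 0 in every library.

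Light exposure was compared with control to ask which genes of this group changed in the injured retina. Hk3 and Hkdc1 rose after light, by 13.1-fold and 2.09-fold, and Hk2 and Slc16a3 fell to 0.573 and 0.588 of control. The other 6 members, Hk1, Ldha, Ldhb, Pfkfb3, Slc2a1 and Slc16a1, did not pass the test. A gene is called here when its p, adjusted after Benjamini and Hochberg over all 14349 genes tested, was under 0.05 by the quasi-likelihood method of edgeR, and 11.3% of those genes were called. Of the calls among all genes, 7.52% of genes tested were higher and 3.8% lower. All 10 members passed the filter on low counts, Hk3 only with the help of the light libraries, in which it was high. With at least 10 counts in every library Hk3 has no value and 3 members were called. With total library size the 4 calls were Hk3, Hkdc1 and Ldhb as higher and Hk2 as lower. With the fold cutoff of the study, which asks for a change of 2 or more on the log2 scale in either direction, only Hk3 remained of the 4 members, against 2.92% of all genes. The libraries of the light and control groups did not overlap for 9 of the 10 members, all but Hk1, with 4 higher and 5 lower. Among all genes tested 60.9% did not overlap, 30.6% higher and 30.3% lower. An unadjusted p under 0.05 was found for 8 members and for 28.9% of all genes. With 1 library left out, its group holds a single library, the other group alone gives the spread, and that library is taken to vary alike. Calls kept or lost in such fits therefore say little about the members. The log2 fold changes without control 1 and without control 2 were -0.78 and -0.84 for Hk2, 1.03 and 1.08 for Hkdc1, -0.69 and -0.85 for Slc16a3, and 3.17 and 4.59 for Hk3. Without light 2 they were -0.66 for Hk2, -0.62 for Slc16a3, 2.48 for Hk3 and 0.97 for Hkdc1.

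**Figure D1:**
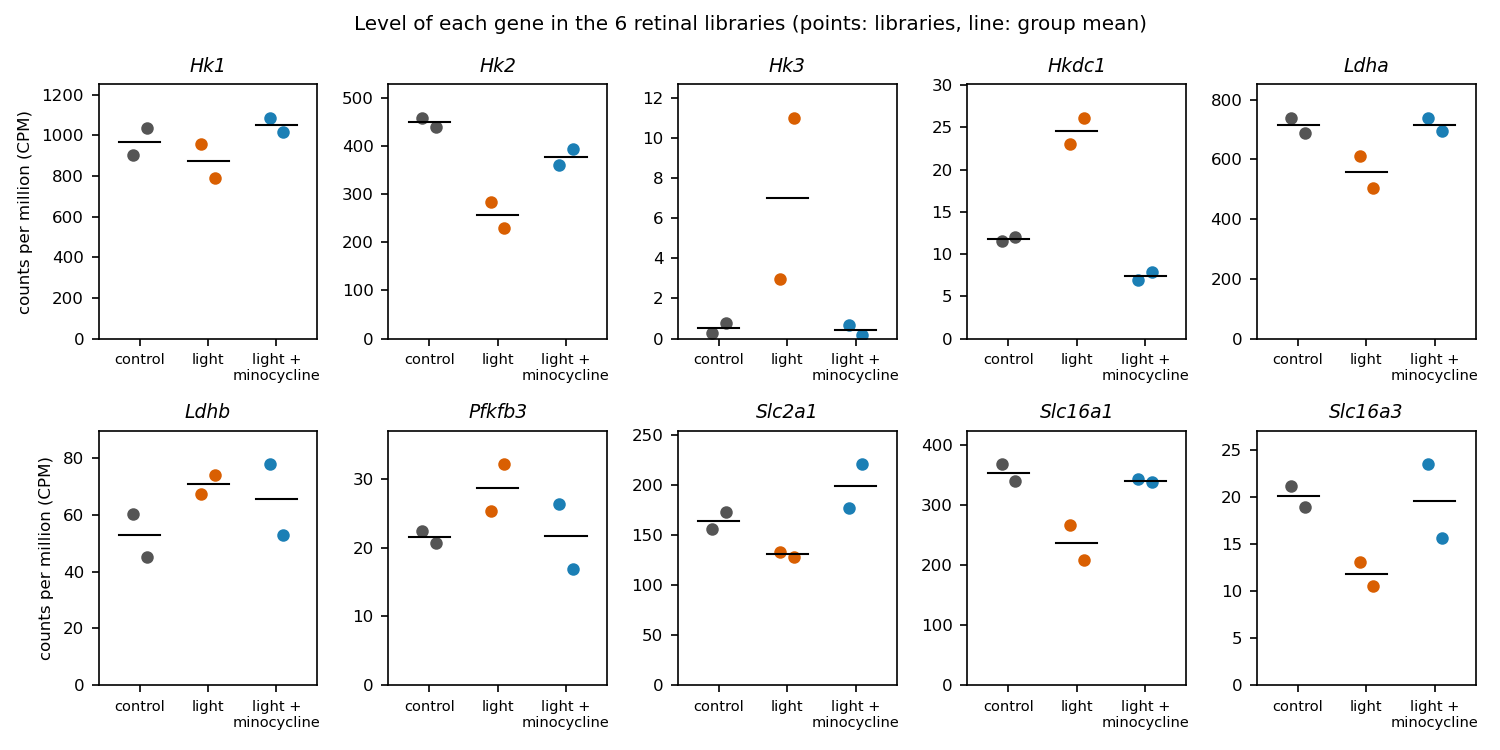
Levels of the 10 genes in CPM (vertical axes, each starting at 0 and scaled to the gene) in the control, light, and light plus minocycline groups. Points are libraries and lines are means of 2 libraries. Both light libraries lay below both control libraries for Hk2 (282 and 230 against 458 and 439 CPM) and above them for Hkdc1 (23.01 and 26.2 against 11.6 and 11.97 CPM).

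Hk2, the photoreceptor isozyme, fell. It measured 458 and 439 CPM in the controls, 282 and 230 CPM after light, and 361 and 393 CPM with minocycline. The 3 groups did not overlap, with the minocycline libraries between the others. The means were 449 ± 13.7 CPM in control and 256 ± 36.9 CPM after light (SD, n = 2), a log2 fold change of -0.80 (SE 0.17, edgeR adjusted p = 0.0197). Without light 2 the log2 fold change was -0.66. Rod markers moved with it. Their summed level was 105489 and 82866 CPM in the controls and 61822 and 43866 CPM after light, with 1 of 10 called lower and a median log2 fold change of -0.83, and was 89712 and 97079 CPM with minocycline. Per 1000 CPM of rod markers, Hk2 was 4.35 and 5.30 in the controls, 4.57 and 5.25 after light, and 4.02 and 4.05 with minocycline, so that on this scale control and light overlapped. In whole tissue, fewer cells of a type and less RNA per cell cannot be told apart.

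Hk3, the myeloid isozyme, was near the detection limit outside the light group. Its counts were 4 and 11 in the controls, 51 and 232 after light, and 15 and 3 with minocycline. These correspond to 0.284 and 0.775 CPM, 2.98 and 11.0 CPM, and 0.653 and 0.159 CPM. Both light libraries lay above all others, and light 2 was the highest by far. The log2 fold change of light against control was 3.72 (SE 0.80, edgeR adjusted p = 0.0356), and with 1 library left out it was 2.48 without light 2, 3.17 without control 1, 4.36 without light 1 and 4.59 without control 2. Whether Hk3 was called in those fits says little, since each has a single library in 1 group. The summed myeloid markers, which include Aif1, Cx3cr1 and P2ry12, were 30.2 and 36.3 CPM in the controls, 253 and 803 CPM after light, and 62.7 and 29.6 CPM with minocycline. Of these 10 markers 4 were called higher after light, with a median log2 fold change of 3.94. Per 1000 CPM of myeloid markers, Hk3 was 9.41 and 21.4 in the controls, 11.8 and 13.7 after light, and 10.4 and 5.37 with minocycline, and the light libraries lay between the controls.

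**Figure D2:**
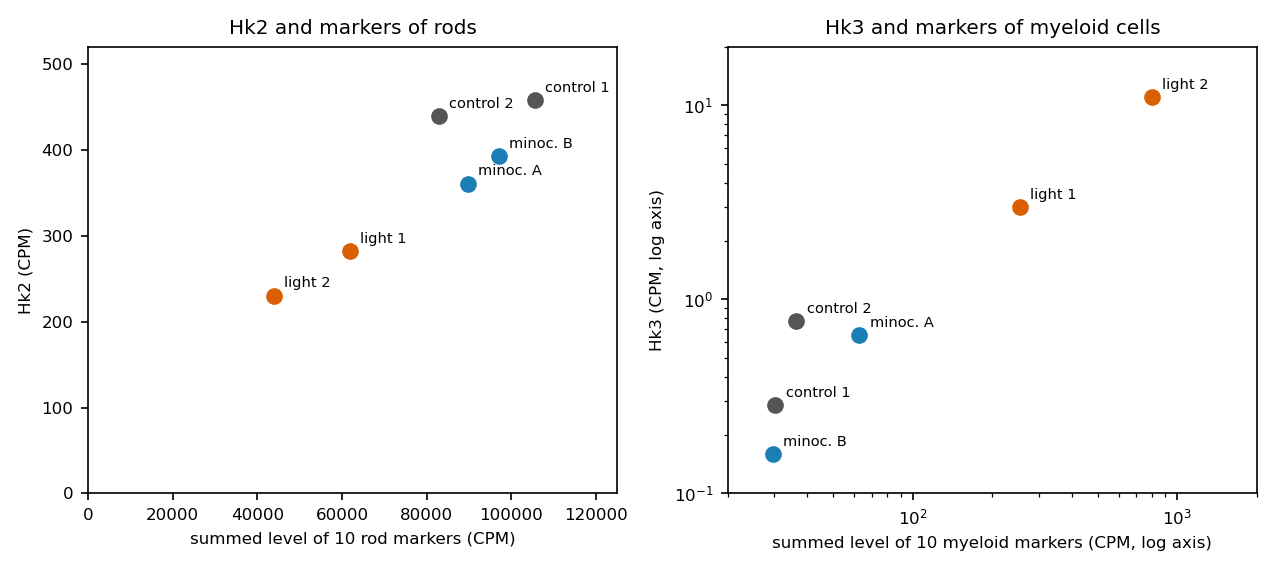
Left, Hk2 against the summed level of 10 rod markers, both in CPM on linear axes. Right, Hk3 against the summed level of 10 myeloid markers, both in CPM on log axes. Points are the 6 libraries, and minoc. stands for light plus minocycline. The light libraries had the lowest rod marker sums (61822 and 43866 CPM) with the lowest Hk2, and the highest myeloid sums (253 and 803 CPM) with the highest Hk3.

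Hkdc1 was the other hexokinase that rose after light. It measured 11.6 and 11.97 CPM in the controls, 23.01 and 26.2 CPM after light, and 6.92 and 7.84 CPM with minocycline. The 3 groups did not overlap, and here the minocycline libraries were the lowest. Light raised it by 1.07 on the log2 scale (SE 0.20, edgeR adjusted p = 0.0139), and by 0.97 without light 2. Bipolar markers summed to 1264 and 1283 CPM in the controls, 1609 and 2009 CPM after light and 1352 and 1173 CPM with minocycline, with 3 of 7 called higher after light. Müller cell markers summed to 2858 and 1969 CPM, 3123 and 3467 CPM, and 3612 and 2676 CPM in the same order, with 1 of 8 called higher. Relative to 1000 CPM of bipolar markers, Hkdc1 was 9.16 and 9.33 in the controls, 14.3 and 13.02 after light, and 5.12 and 6.68 with minocycline. On the Müller scale it was 4.05 and 6.08, 7.37 and 7.55, and 1.92 and 2.93. The groups stayed apart on both scales, in the same order as in CPM. Per 1000 CPM of myeloid markers Hkdc1 was 384 and 330 in the controls, 90.8 and 32.6 after light, and 110 and 265 with minocycline, so on that scale the light libraries were the lowest.

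Hk1, the general neural isozyme, had the highest level of the 4 per length, and its control and light libraries overlapped. It measured 903 and 1033 CPM in the controls, 958 and 790 CPM after light, and 1087 and 1013 CPM with minocycline. Its change after light was -0.14 on the log2 scale (SE 0.20, edgeR adjusted p = 0.676), and its sign depended on the scaling, since it was 0.09 when total library size was used.

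Scaled to exon length, Hk1 and Hk2 made up nearly all hexokinase transcripts. Hk1 held 57.2% and 61.4% of them in the controls, 68.1% and 66.5% after light, and 67.3% and 63.8% with minocycline. The Hk2 share was 41.5% and 37.3% in the controls, 28.7% and 27.7% after light, and 31.9% and 35.3% with minocycline. The Hkdc1 share was 1.22% and 1.18%, 2.72% and 3.66%, and 0.712% and 0.821%. Hk3 reached 2.15% in light 2 and was at most 0.490% in the others. The ratio of Hk1 to Hk2 was accordingly 1.38 and 1.65 in the controls, 2.37 and 2.40 after light, and 2.11 and 1.81 with minocycline. The summed hexokinase level was 185 and 197 CPM per kb in the controls, 165 and 139 after light, and 189 and 186 with minocycline. With 2 libraries a group these shares are descriptions without a test.

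**Figure D3:**
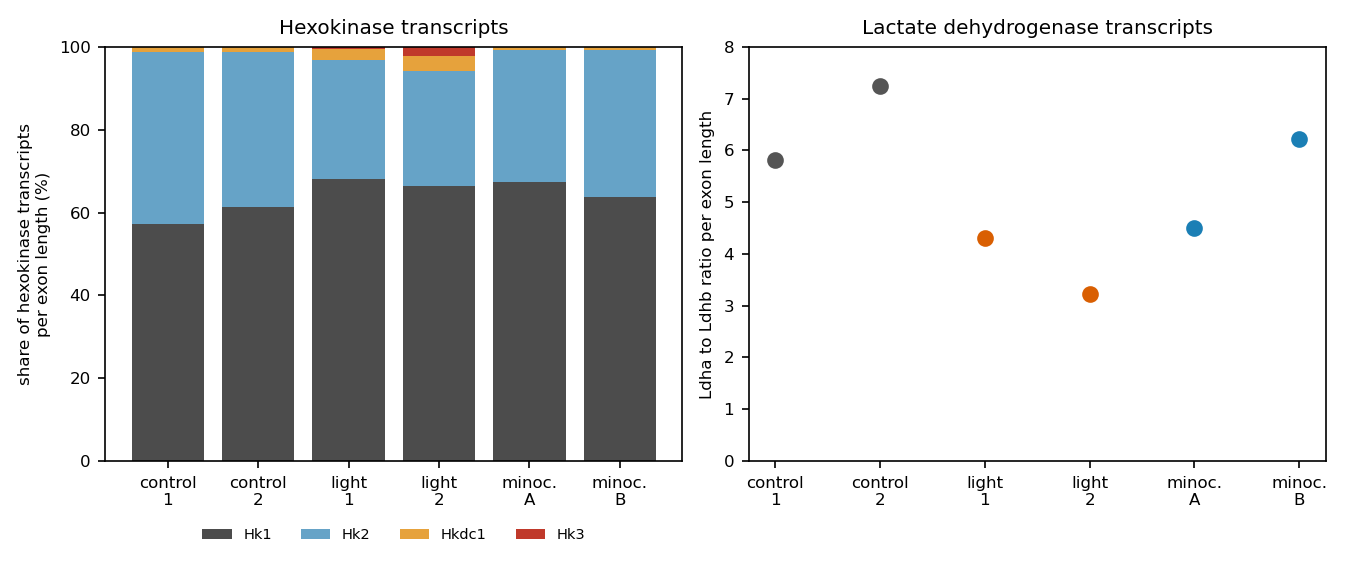
Left, share of each hexokinase among the hexokinase transcripts per exon length, in percent, as stacked bars for the 6 libraries. Right, ratio of Ldha to Ldhb per exon length in each library, on an axis starting at 0. The Hk2 share was 41.5% and 37.3% in the controls against 28.7% and 27.7% after light, and the ratio was lowest in light 2 at 3.23.

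Ldha and Ldhb, the subunits of lactate dehydrogenase, lay on opposite sides of control after light, and neither passed the test in the TMM scaling. Ldha measured 740 and 690 CPM in the controls, 611 and 506 CPM after light, and 740 and 695 CPM with minocycline. Both light libraries were below the others. Its log2 fold change was -0.35 (SE 0.19, edgeR adjusted p = 0.238). Ldhb measured 60.4 and 45.2 CPM in the controls, 67.2 and 74.2 CPM after light, and 77.9 and 53.0 CPM with minocycline. The light libraries lay above the controls, and the minocycline libraries spanned them. For Ldhb the log2 fold change was 0.43 (SE 0.17, edgeR adjusted p = 0.123), and with total library size it was called higher (0.66, edgeR adjusted p = 0.0390). The ratio of Ldha to Ldhb per exon length was 5.82 and 7.24 in the controls, 4.31 and 3.23 after light, and 4.51 and 6.22 with minocycline. Ldha has processed copies in the mouse genome, and how reads that map to several places were counted is not given in the sources used here, so its level is uncertain. Relative to 1000 CPM of rod markers, Ldha was 7.02 and 8.33 in the controls and 9.88 and 11.5 after light, so the light libraries were below the controls in CPM and above them on this scale.

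Pfkfb3 makes fructose 2,6-bisphosphate, the activator of phosphofructokinase. It measured 22.4 and 20.7 CPM in the controls, 25.3 and 32.2 CPM after light, and 26.4 and 17.0 CPM with minocycline. Both light libraries lay above the controls, with a log2 fold change of 0.42 (SE 0.19, edgeR adjusted p = 0.163).

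Among the transporters, Slc16a3 fell after light and Slc16a1 was just outside the threshold. Slc16a3, the transporter associated with lactate export, measured 21.1 and 18.9 CPM in the controls, 13.03 and 10.5 CPM after light, and 23.5 and 15.6 CPM with minocycline. Both light libraries were the lowest, and the minocycline libraries spanned the controls. For Slc16a3 the log2 fold change was -0.77 (SE 0.21, edgeR adjusted p = 0.0431), and the call was lost with total library size (-0.53, edgeR adjusted p = 0.117), without robust estimation (edgeR adjusted p = 0.0505) and when all 6 libraries were fitted together (edgeR adjusted p = 0.0763). Slc16a1 measured 369 and 340 CPM in the controls, 267 and 209 CPM after light, and 344 and 339 CPM with minocycline. Its log2 fold change was -0.57 (SE 0.17, edgeR adjusted p = 0.0555). DESeq2 called it (adjusted p = 0.0109), as did edgeR with no filter (adjusted p = 0.0265) and with the replicate number as a block (adjusted p = 0.0260). With total library size the log2 fold change was -0.34 and not called (edgeR adjusted p = 0.184). It was -0.76 without light 1 and -0.40 without light 2. Slc2a1 measured 156 and 173 CPM in the controls, 133 and 129 CPM after light, and 178 and 221 CPM with minocycline. For Slc2a1 the log2 fold change after light was -0.33 (SE 0.15, edgeR adjusted p = 0.168).

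These transporter values also moved beside the rod markers. Per 1000 CPM of rod markers, Slc16a3 was 0.200 and 0.229 in the controls and 0.211 and 0.239 after light, and Slc16a1 was 3.50 and 4.11 in the controls and 4.32 and 4.76 after light. Slc2a1 was 1.48 and 2.09 in the controls and 2.16 and 2.93 after light. On this scale control and light overlapped for Slc16a3, and both light libraries lay above the controls for Slc16a1 and Slc2a1. The ratio of Slc16a1 to Slc16a3 per exon length was 21.0 and 21.6 in the controls, 24.6 and 23.9 after light, and 17.6 and 26.1 with minocycline.

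**Figure D4:**
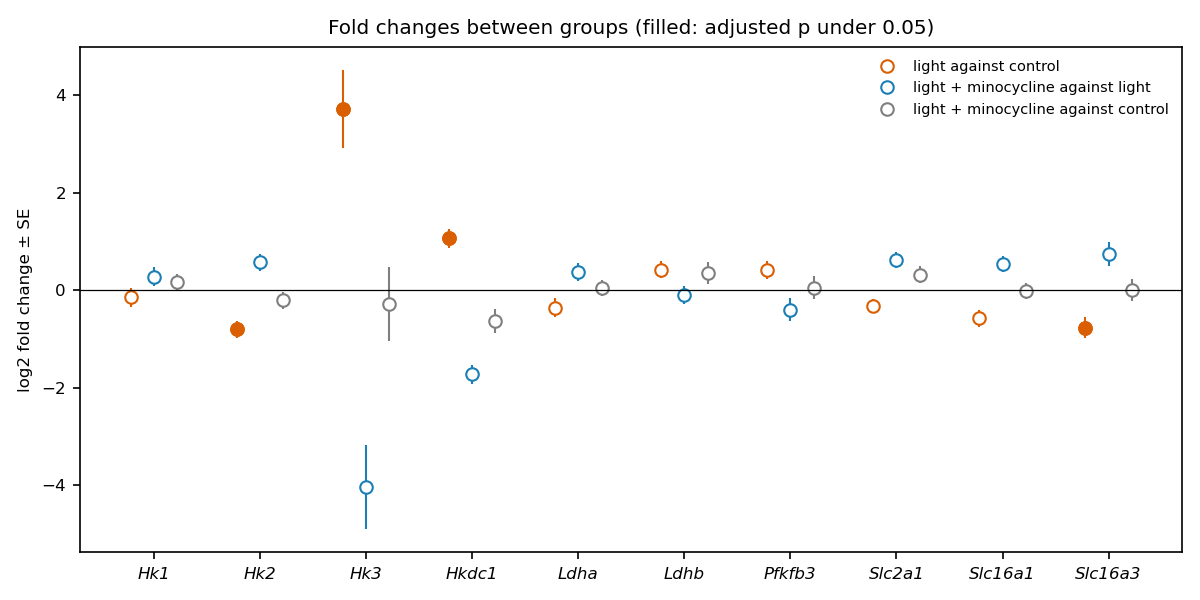
Log2 fold changes (vertical axis) of the 10 genes for light against control, light plus minocycline against light, and light plus minocycline against control. Points are edgeR estimates, bars are standard errors, and filled points have an adjusted p under 0.05. After light Hk3 (3.72) and Hkdc1 (1.07) rose and Hk2 (-0.80) and Slc16a3 (-0.77) fell, and no point of the other comparisons is filled.

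Minocycline-treated retinas were compared with light-exposed retinas to ask whether the changes after light were also seen under treatment. The lowest adjusted p belonged to Hkdc1, at 24.6 ± 2.23 CPM in light and 7.38 ± 0.651 CPM with minocycline (SD, n = 2), a log2 fold change of -1.72 (SE 0.20, edgeR adjusted p = 0.0515). None of the 10 members was called by edgeR, 6 had an unadjusted p under 0.05, and DESeq2 called 5, namely Hk2, Slc2a1 and Slc16a1 as higher and Hk3 and Hkdc1 as lower. DESeq2 called 8.05% of the 14750 genes tested, 460 higher and 727 lower. By edgeR 0.0542% of them were called and 21.1% had an unadjusted p under 0.05. The libraries did not overlap for 8 members, of which Hk1, Hk2, Ldha, Slc2a1, Slc16a1 and Slc16a3 were higher with minocycline and Hk3 and Hkdc1 were lower, and 54.8% of all genes did not overlap, 26.1% higher and 28.7% lower. The log2 fold change was -4.03 for Hk3 (SE 0.87, edgeR adjusted p = 0.0895), 0.57 for Hk2 (edgeR adjusted p = 0.126) and 0.63 for Slc2a1 (edgeR adjusted p = 0.0978). It was 0.75 for Slc16a3, 0.54 for Slc16a1, 0.38 for Ldha, 0.28 for Hk1, -0.10 for Ldhb and -0.39 for Pfkfb3, with adjusted p between 0.142 and 0.815. With 1 library left out, Hk3 was at -4.69 without light 1, -2.81 without light 2, -5.37 without minocycline A and -3.41 without minocycline B. In such fits Hkdc1 ranged from -1.82 to -1.61 and Slc2a1 from 0.45 to 0.79, and calls in them say little. Hk3 passed the filter on low counts here only with the help of the light libraries. With at least 10 counts in every library Hk3 has no value. This comparison shares the light libraries with the first, so values of opposite sign in both are not independent. Summed rod markers were higher and myeloid markers lower with minocycline than after light, as given above, and their part in these values was not tested.

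Minocycline-treated retinas were also compared with controls that had neither light nor drug. None of the 10 members was called by edgeR or by DESeq2, and edgeR adjusted p lay between 0.628 and 0.991, with 0.162% of 14181 genes called. Hkdc1 alone had an unadjusted p under 0.05, which 7.01% of all genes had, with a log2 fold change of -0.63 (SE 0.24, edgeR adjusted p = 0.628) and both minocycline libraries (6.92 and 7.84 CPM) below both controls (11.6 and 11.97 CPM). Hk2 was also lower in both minocycline libraries, with a log2 fold change of -0.21 (SE 0.17, edgeR adjusted p = 0.752). Slc2a1 was higher in both, with a log2 fold change of 0.32 (SE 0.18, edgeR adjusted p = 0.742), and its highest library, minocycline B, was also the one with most corneal and stromal marker signal (303 and 423 CPM). Pigment epithelium markers were also highest there, at 591 CPM, against 140 and 365 CPM in the controls, 149 and 203 CPM after light and 196 CPM in minocycline A. Within the control and the minocycline group the library with more pigment epithelium markers also had more Slc2a1. Within the light group the order was opposite, with Slc2a1 at 133 CPM in light 1 and 129 CPM in light 2. Corneal markers were 10.9 CPM in control 1 and 2.46 CPM in control 2, the control with more Slc2a1. The part of these markers in the Slc2a1 level was not tested. The libraries of the other 7 members overlapped, and 39.9% of all genes did not overlap, 15.9% higher and 24% lower. These 3 comparisons use each group in 2 of them.

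Compared per exon length, the members' mean levels had the same order in control and minocycline and another order after light. In controls Ldha came first at 216 CPM per kb, followed by Hk1 at 113, Slc16a1 at 80.1, Hk2 at 75.2, Slc2a1 at 47.0 and Ldhb at 33.6. Slc16a3 at 3.77, Pfkfb3 at 2.85, Hkdc1 at 2.30 and Hk3 at 0.144 lay well below. Slc16a1 and Hk2 were the closest neighbours, with libraries at 76.9 to 83.3 and 73.6 to 76.8 CPM per kb, which lay next to each other without overlapping, and no neighbours in the control order overlapped. After light, Slc16a1 at 53.8, Ldhb at 45.0 and Hk2 at 42.9 followed each other with overlapping libraries, and Hkdc1 at 4.79 stood above Pfkfb3 at 3.81 and Slc16a3 at 2.21, with Slc16a3 and Hk3 at 1.90 overlapping. With minocycline the libraries of Hk2 and Slc2a1 overlapped (60.4 to 65.8 and 50.7 to 63.1 CPM per kb), as did those of Slc16a3 and Pfkfb3.

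For members whose level spanned at least 2-fold over the libraries, the genes with the most similar pattern were sought by the root mean square difference of centred log2 CPM over the 6 libraries among 13976 genes. For Hk3 these were Havcr2, Cd33 and Ncf1 (0.211, 0.291 and 0.368), which are genes of immune cells. Havcr2 measured 0.782 and 1.48 CPM in the controls, 7.18 and 32.3 CPM after light, and 1.70 and 0.583 CPM with minocycline. For Hkdc1 they were Retn, Cdh23 and Nxpe4 (0.205, 0.210 and 0.216), and Cdh23 measured 2.27 and 2.39 CPM, 3.21 and 4.27 CPM, and 1.44 and 1.32 CPM in the same order. For Slc16a3 they were Fdft1, Pgam1 and Hist1h1c (0.144, 0.151 and 0.157), where Pgam1 is a glycolytic enzyme at 17.3 and 12.3 CPM in the controls, 9.58 and 8.83 CPM after light and 16.1 and 13.3 CPM with minocycline. The likeness describes these 6 libraries only.

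The other genes of glucose and lactate handling were taken from 8 lists with 86 genes, of which 71 could be tested after light. Of these 4 were called higher and 1 lower, or 7.04%, against 11.3% of all genes. As for the members, calls in fits with 1 library left out say little. Without control 1 and without control 2 the 5 called genes kept their direction. Their log2 fold changes were 2.86 and 2.66 for Slc2a9, 1.88 and 2.84 for Pdk4, 1.46 and 1.16 for Pygl, 1.21 and 0.81 for Gbe1, and -1.06 and -0.54 for Gckr. DESeq2 called 3 higher and 5 lower, and 13.5% of all genes. Over all 14349 genes the median change was 0.00 on the log2 scale, and with total library size it was 0.24, so list medians are given relative to the main scaling and shift upwards with the other. Cell type markers moved beside these lists after light. Their median log2 fold changes were 3.94 for myeloid cells, 0.57 for Müller cells, 0.54 for bipolar cells, 0.27 for endothelial cells and 0.23 for cones. The medians were -0.68 for pigment epithelium and -0.83 for rods. The part of these markers in the list values was not tested.

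None of 15 tested enzymes of the glycolytic chain was called after light by edgeR, and 5 had an unadjusted p under 0.05, against 28.9% of all genes. DESeq2 called Aldoa and Pkm lower, or 13.3% of the list against 13.5% of all genes. Of the 15, 11 had a log2 fold change below 0 and the median was -0.25, but with total library size 8 were below 0 and the median was -0.02. Pkm, the pyruvate kinase with the highest level of this list, measured 1398 and 1037 CPM in the controls, 942 and 779 CPM after light, and 1257 and 1157 CPM with minocycline, with a log2 fold change of -0.50 after light (edgeR adjusted p = 0.163). Gapdh was counted at only 4.22 to 9.37 CPM and Pgk1 at 10.5 to 15.02 CPM, and both have near-identical copies in the genome, so their counts are uncertain. Of 4 tested genes of glycolytic control, 1 was called lower, as were 3.8% of all genes. This was Gckr, the inhibitor of glucokinase. It measured 189 and 270 CPM in the controls, 147 and 114 CPM after light, and 97.9 and 150 CPM with minocycline, with a log2 fold change after light of -0.81 (SE 0.20, edgeR adjusted p = 0.0334), and the call was lost with total library size. Pfkfb2, a relative of Pfkfb3 with a far higher count, measured 2070 and 2443 CPM in the controls and 1462 and 1321 CPM after light, a log2 fold change of -0.69 (edgeR adjusted p = 0.0639), and DESeq2 called it lower (adjusted p = 0.000378), as it did Gckr.

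Of 7 other glucose transporter genes tested, 1 was called higher, as were 7.52% of all genes, and all 7 had a log2 fold change above 0, with a median of 0.54. With total library size 2 were called higher and the median was 0.77, with 14.4% of all genes called. The gene called, Slc2a9, is known mainly as a urate carrier. It measured 0.569 and 0.493 CPM in the controls, 2.39 and 4.84 CPM after light, and 0.783 and 0.371 CPM with minocycline. Its log2 fold change after light was 2.76 (SE 0.51, edgeR adjusted p = 0.0137), and 2.16 without light 2. Its counts were 8 and 7 in the controls and 41 and 102 after light, and it passed the filter on low counts only through the light libraries. Slc2a3, the neuronal glucose transporter and the highest of the list, had a log2 fold change of 0.26 (edgeR adjusted p = 0.339). None of 6 genes of lactate and pyruvate transport was called by edgeR or DESeq2, and 1 had an unadjusted p under 0.05, against 28.9% of all genes. Bsg (basigin), the partner that brings Slc16a1 and Slc16a3 to the membrane, measured 425 and 361 CPM in the controls, 375 and 354 CPM after light, and 444 and 411 CPM with minocycline, with a log2 fold change after light of -0.10 (edgeR adjusted p = 0.720).

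Of 12 genes of lactate and pyruvate use, Pdk4, a kinase that switches off pyruvate dehydrogenase, was called higher. It measured 0.213 and 0.423 CPM in the controls and 1.29 and 1.85 CPM after light, near the detection limit, with a log2 fold change of 2.29 (SE 0.55, edgeR adjusted p = 0.0273), and DESeq2 did not call it. Its counts were 3 and 6 in the controls and 22 and 39 after light, and it too passed the filter only through the light libraries. Pdha1, a pyruvate dehydrogenase subunit with the highest CPM of the list on average over the 3 groups, though not in the controls, had a log2 fold change of -0.10 (edgeR adjusted p = 0.683). Of 9 glycogen genes 2 were called higher and 8 had a log2 fold change above 0, with a median of 0.44, and 7.52% of all genes were called higher. With total library size 5 were called higher and the median was 0.67, with 14.4% of all genes called. Pygl, a glycogen phosphorylase, measured 9.81 and 7.96 CPM in the controls, 19.0 and 24.9 CPM after light, and 12.6 and 12.1 CPM with minocycline, with a log2 fold change after light of 1.31 (SE 0.23, edgeR adjusted p = 0.0131). Gbe1, the glycogen branching enzyme, measured 37.7 and 28.5 CPM in the controls, 54.5 and 77.5 CPM after light, and 54.3 and 35.9 CPM with minocycline, with a log2 fold change after light of 1.00 (SE 0.21, edgeR adjusted p = 0.0204).

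None of 7 pentose phosphate genes was called by edgeR or DESeq2 and none had an unadjusted p under 0.05, and Tkt, the highest, had a log2 fold change of 0.39 (edgeR adjusted p = 0.253). None of 11 tested genes of the hypoxia response was called by edgeR, and 3 had an unadjusted p under 0.05, against 28.9% of all genes. DESeq2 called Ndrg1 lower, or 9.09% of the list against 13.5% of all genes. Of these 11, 9 had a log2 fold change below 0 with a median of -0.30, but 7 and -0.07 with total library size. Hif1a, the subunit of hypoxia-inducible factor, measured 1096 and 912 CPM in the controls, 790 and 715 CPM after light, and 1011 and 1044 CPM with minocycline, with a log2 fold change after light of -0.41 (edgeR adjusted p = 0.192). For minocycline against light none of 72 tested genes of the lists was called by edgeR, 14 had an unadjusted p under 0.05 against 21.1% of all genes, and DESeq2 called 5 against 8.05% of all genes. For minocycline against control none of 69 was called by edgeR, 6 had an unadjusted p under 0.05 against 7.01% of all genes, and DESeq2 called 1, Gckr, as lower, against 1.16% of all genes.

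**Figure D5:**
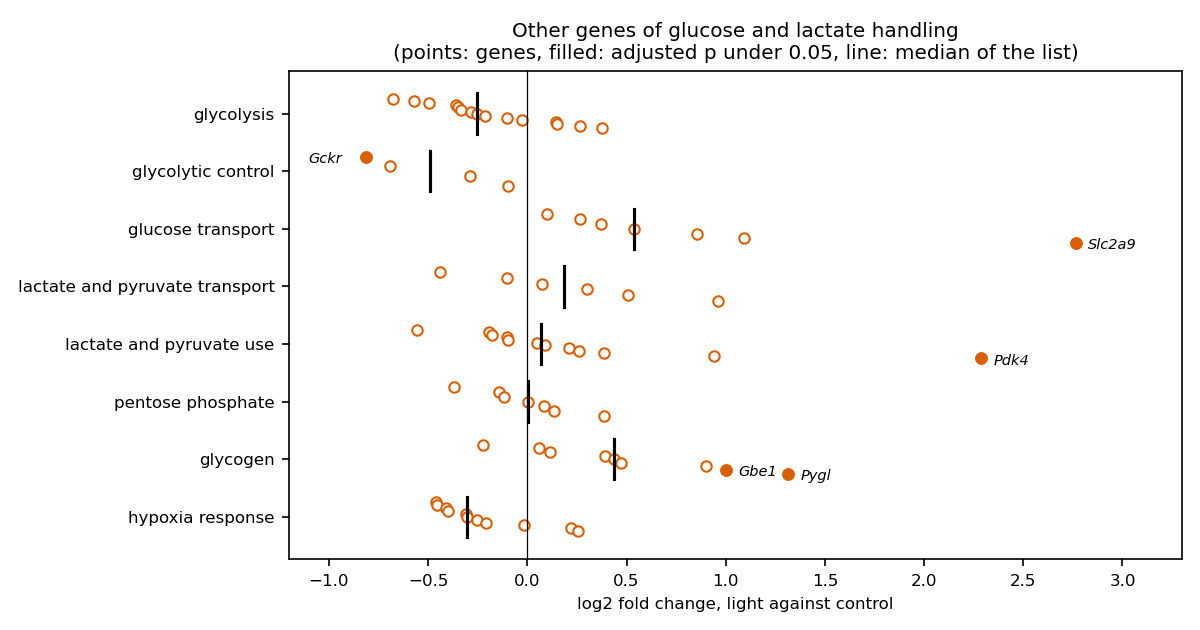
Log2 fold changes of light against control (horizontal axis) for the tested genes of 8 lists of glucose and lactate handling (rows). Each point is a gene, filled where the adjusted p is under 0.05, and the black line is the median of the list. Filled points are Slc2a9 (2.76), Pdk4 (2.29), Pygl (1.31) and Gbe1 (1.00) on the right and Gckr (-0.81) on the left.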

How the data were processed

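Total retinal RNA was enriched for poly-A mRNA and sequenced as stranded single reads of 50 cycles. Per the study's methods the authors aligned reads to mm10 with STAR in RNA Express and compared groups with DESeq2, and versions, annotation and use of strand are not given in the sources used here. The deposited table holds whole-number read counts per gene for 6 libraries (23420 genes, 4791 at 0 throughout), whose differing totals are those of raw counts although the study speaks of normalized ones. Depth was 15205930 to 22856922 counts per library. No value column was left unused, and the duplicated minocycline header means these libraries have no replicate number.

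Pairs of groups were tested on the counts by robust quasi-likelihood in edgeR 4.0.16 (R 4.3.3), after TMM scaling and its filterByExpr filter and with group as the sole term, with Benjamini-Hochberg adjustment over all tested genes and a threshold of 0.05. The scripts were tested on simulated counts. Standard errors are the size of the log2 fold change divided by the square root of F. CPM used TMM-adjusted totals over 6 libraries, log2 CPM a prior count of 2, and levels per length the exon union of GENCODE M21 on GRCm38, matched by symbol (21728 directly, 1272 by synonym). Promoter letters are from RefSeq, and protein sequences were not used here. DESeq2 1.42.0, other scalings, filters, thresholds, designs and each library left out were alternatives. With 2 libraries a group, p-values measure only the spread between these samples.

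The members, the gene and marker lists and the alternatives were chosen with earlier results of these data known. Genes named are the 10 members, every list gene with an adjusted p under 0.05, the highest gene of each list (1 of which is not reported here) and the 3 most alike genes of each member spanning at least 1 on the log2 scale. Aldoa, Pgk1, Gapdh and Ndrg1 were named after their values were seen.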

Additional observations from a re-analysis of the deposited data

How the results depend on the processing

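After light, 4 members were called. The count was 1 with the fold cutoff and ranged from 0 to 5 with 1 library left out (0 without control 1, 0 without control 2, 2 without light 2). Such fits have 1 library in a group and take its spread from the other group, so their counts, high or low, say little about stability. Pathway genes called after light numbered 5, against 8 with DESeq2, 9 with total library size, 3 with at least 10 counts in every library, 3 with all 6 libraries in one fit, 2 with the fold cutoff, 12 at an adjusted p under 0.1, and 0 to 5 with 1 library left out. All genes called after light numbered 1624, against 419 with the fold cutoff, 2816 at an adjusted p under 0.1, and 4 to 2145 with 1 library left out (4 without control 1, 57 without control 2, 497 without light 2). With total library size 1930 were higher and 133 lower, against 1079 and 545. Same-numbered control and light libraries did not deviate together (r = -0.01 over 14713 genes). This cannot settle whether the numbers pair them, since the controls also differed in Xist counts and the light libraries in myeloid markers. With the replicate number as a block 5 members, 7 pathway genes and 2525 of all genes were called. For comparisons with the minocycline libraries, no paired analysis was possible because their columns carry no number. For minocycline against light, members called numbered 0, against 5 with DESeq2, 2 with no filter, 2 in one fit, 3 at an adjusted p under 0.1, and 0 to 2 with 1 library left out. Pathway genes numbered 0, against 5, 2, 1 and 2 under the same settings and 0 to 1 with 1 library left out. All genes numbered 8, against 1199 with DESeq2, 2 with its size factors, 0 with total library size (3452 with an unadjusted p under 0.05), 732 with no filter, 15 without robust estimation, 488 in one fit, 882 at an adjusted p under 0.1, and 14 to 772 with 1 library left out. For minocycline against control, pathway genes numbered 0, against 1 with DESeq2 and 0 to 5 with 1 library left out (1 without minocycline A, 5 without minocycline B). All genes numbered 23, against 167 with DESeq2, 187 with no filter, 3 with at least 10 counts, 0 in one fit (1248 with an unadjusted p under 0.05), 48 at an adjusted p under 0.1, and 3 to 480 with 1 library left out. The DESeq2 counts of all genes, 1199 and 167, are over 18453 and 18120 genes without the edgeR filter. The DESeq2 shares given earlier are over the genes that edgeR tested. The cause of these shifts was not tested. Single fold changes turned sign for Hk1 after light with total library size (0.0906). For minocycline against control they did so for Slc16a1 with total library size (0.0290) and for Slc16a3 with DESeq2 (-0.0204), its size factors (-0.0165), no filter (-0.0147) and one fit (-0.0350). With 1 library left out, those that changed sign ranged from -0.38 to 0.15 for Ldhb (minocycline against light), and against control from -1.65 to 0.59 for Hk3, -0.0049 to 0.0920 for Ldha, -0.31 to 0.30 for Pfkfb3, -0.0638 to 0.0405 for Slc16a1 and -0.33 to 0.23 for Slc16a3. Of the other member fold changes, 195 kept their direction and side of the threshold under other settings, 13 came to pass it and 3 no longer passed it, and with 1 library left out these numbers were 97, 5 and 10. Without scaling to length, the Ldha to Ldhb ratio was 13.8, 7.95 and 11.3 in control, light and minocycline, the Hk1 share 67.7%, 75.2% and 73.2%, and the Hk2 share 31.5%, 22.03% and 26.3%. Hk3 had no value with at least 10 counts in every library.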
